A study of Homo sapiens with 24 samples.

Results

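The genes described here are 10 YAP/TEAD target genes and regulators, measured by RNA sequencing in tumour spheroids treated with heat and radiation. They were taken as a fixed list of symbols, CTGF (also named CCN2), CYR61 (CCN1), ANKRD1, AMOTL1, AMOTL2, LATS2, AJUBA, YAP1, WWTR1 and THBS1, and matched to the Ensembl identifiers of the count tables. All 10 were found among the 57500 genes of the tables.

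Spheroids are small balls of cells grown without attachment to plastic, and here they were formed from FaDu and SAS, established cell lines of human head and neck squamous cell carcinoma. Control spheroids were kept at the culture temperature, RT spheroids received a single dose of 7 Gy (FaDu) or 10 Gy (SAS), and HT spheroids were heated at 42.5 °C for 60 min. HT + RT spheroids received the heat first and the same radiation dose right after it. Irradiation was done at room temperature, and fresh medium was added to each well after treatment. All spheroids were 4 days old, the medium was reduced before treatment, control and heated plates were sealed, and RNA was taken 0.5 h after treatment, with 3 replicates in each of the 8 groups. The radiation dose differed between the spheroid types, so a difference between their responses to RT or HT + RT cannot be told apart from a difference in dose. Each spheroid type was 1 cell line, and the FaDu cells were a subline of the original line.

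The Hippo pathway is a kinase cascade in which MST and LATS kinases phosphorylate the coactivators YAP (gene YAP1) and TAZ (gene WWTR1) and keep them out of the nucleus. When the cascade is off, both enter the nucleus, bind TEAD transcription factors and raise transcription of genes for secreted matrix proteins, for cytoskeletal proteins and for inhibitors of the pathway itself. The pathway responds to cell contact, cell shape and mechanical tension, and YAP is often active in squamous carcinoma.

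Total counts ranged from 15203484 to 29452514 per library, with a median of 18378943. Levels are given as CPM, counts relative to the library's total after trimmed-mean scaling over all 24 libraries. Fold changes are on the log2 scale with their standard error (SE), and adjusted p-values come from edgeR's quasi-likelihood test with Benjamini-Hochberg adjustment over all genes tested. A gene passed the test at an adjusted p under 0.05. In FaDu, replicate 1 stood apart in every group. The mean chi-square per gene of a pair of libraries, in which larger values mark more different counts, was 3.51 to 5.09 between replicates 2 and 3 and 15.1 to 22.0 in pairs with replicate 1. In SAS it ranged from 4.61 to 11.8. Results in FaDu are therefore given without these libraries as well where a call changed. RNA was from whole spheroids, so fewer cells that express a gene and less of its RNA per cell cannot be told apart.

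Sequence was available for 9 of the 10 members as the 250 bases before an annotated start of transcription (RefSeq, GRCh38.p14), in 12 windows, since AMOTL2, AJUBA and WWTR1 had 2 starts each. The set of promoter sequences used here had no entry for CYR61. Both strands were searched for GGAATG (bound by TEAD factors), TGANTCA (AP-1), GAANNTTC (facing units of the heat shock element) and the CArG box of SRF. The sequences of CTGF, ANKRD1 and THBS1 are shown because these members moved most with heat among those with sequence, and capitals mark GGAATG. CTGF lies on the minus strand at chr6:131951373-131951622, ANKRD1 on the minus strand at chr10:90921088-90921337 and THBS1 on the plus strand at chr15:39580829-39581078.
CTGF: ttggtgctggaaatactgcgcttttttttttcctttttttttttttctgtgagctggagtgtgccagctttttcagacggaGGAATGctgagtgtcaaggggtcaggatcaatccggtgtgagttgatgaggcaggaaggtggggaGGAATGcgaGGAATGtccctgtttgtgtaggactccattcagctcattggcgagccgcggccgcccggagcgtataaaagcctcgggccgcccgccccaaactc
ANKRD1: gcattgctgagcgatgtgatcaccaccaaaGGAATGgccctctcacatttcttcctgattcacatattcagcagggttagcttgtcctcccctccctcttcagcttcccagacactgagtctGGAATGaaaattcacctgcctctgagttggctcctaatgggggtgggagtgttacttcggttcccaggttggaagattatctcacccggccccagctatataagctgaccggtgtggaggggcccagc
THBS1: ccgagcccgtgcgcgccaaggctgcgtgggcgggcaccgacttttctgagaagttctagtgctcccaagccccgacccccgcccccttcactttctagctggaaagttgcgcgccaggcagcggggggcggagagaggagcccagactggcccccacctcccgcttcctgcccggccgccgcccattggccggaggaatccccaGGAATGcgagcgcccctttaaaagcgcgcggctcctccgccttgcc
CTGF held 3 matches to GGAATG, beginning 169, 104 and 95 bases before the start, and ANKRD1 held 2, beginning 220 and 128 bases before it. Single matches were present for THBS1 (46 bases before the start), YAP1 (162 bases), the first AMOTL2 start (69 bases) and the first AJUBA start (59 bases). Of all 35116 promoter windows of the same length, 11.9% held at least 1 match, 0.94% at least 2 and 0.0826% at least 3. TGANTCA and GAANNTTC each matched once, in ANKRD1, and the latter shared 1 base with a GGAATG match. These motifs were present in 6.57% and 5.78% of all windows. The CArG box matched in no member window and in 1.16% of all windows. A match describes the letters of the window and is not a measured binding site.

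**Figure D1:**
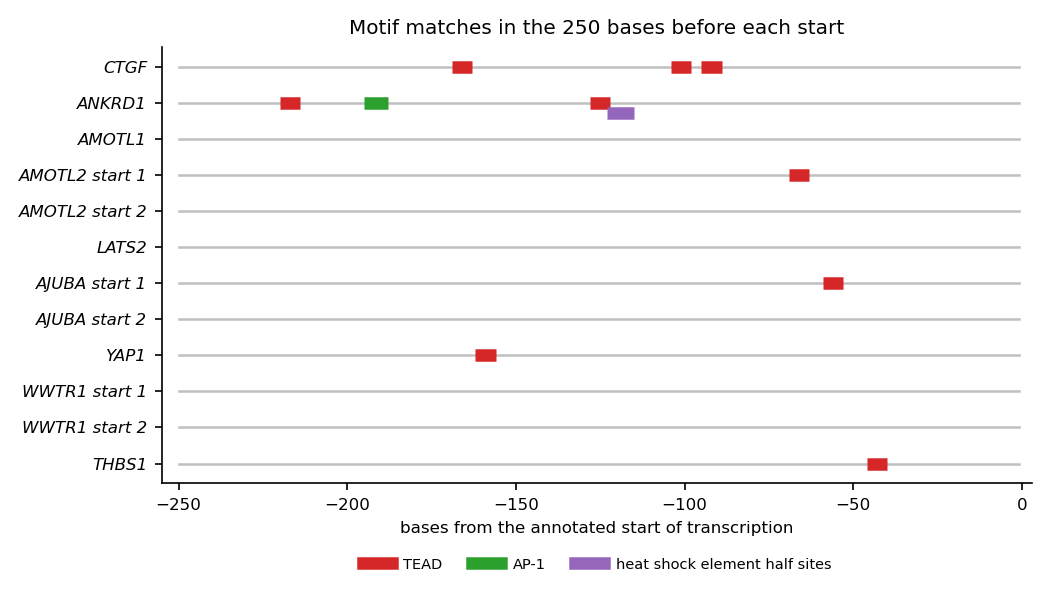
Motif matches (coloured blocks) along the 250 bases before each annotated start, with distance from the start in bases on the x axis and 1 line for each of the 12 windows. CTGF holds 3 TEAD matches and ANKRD1 holds 2, and 6 of the 12 windows hold at least 1.

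The first comparison set untreated FaDu against untreated SAS spheroids and asked where the members stood before any treatment. Per kilobase of exon, the scale used to set genes beside each other, YAP1 was the highest member in FaDu at 14.04 ± 1.23 CPM per kilobase (SD, n = 3), followed by AMOTL2 at 11.6 ± 0.977. In SAS the highest was CYR61 at 353 ± 7.31 CPM per kilobase, followed by THBS1 at 106 ± 2.92 and AMOTL2 at 73.2 ± 4.34. Thus the coactivator itself led in FaDu, whereas secreted targets led in SAS.

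Of the 10 members, 9 passed the test and were lower in FaDu, against a background of 36.4% of 15810 genes, and 0 were higher by edgeR, against 38.6%; at an unadjusted p under 0.05 there were 9, and DESeq2 called 0 higher and 9 lower. With an absolute log2 fold change over 1 as well, 8 of 10 passed, against 38.1% of all genes. The median log2 fold change of the members was -3.28, and 0.03 over all genes; the members' median was the same with ANKRD1 at its lower bound. ANKRD1 and AJUBA entered this test through their SAS counts and had to differ, so the count and the median are a description. The largest gap with counts in both types was AJUBA, which encodes a LIM-domain adaptor that holds LATS kinases back. Its log2 fold change of -9.49 (SE 0.24) is likewise a description and not a test. Across all 12 FaDu libraries AJUBA had 117 counts, 2 to 18 per library, whereas SAS controls were at 393, 334 and 438 CPM. ANKRD1 had 0 counts in the 3 FaDu controls, and SAS controls were at least 392-fold higher against a floor of 3 counts over the group, a bound that covers counting error only. THBS1 differed by -5.70 (SE 0.07, edgeR adjusted p = 3.3e-12) and CYR61 by -5.57 (SE 0.09, edgeR adjusted p = 1.7e-11). AMOTL1 followed at -3.76, CTGF at -2.80, AMOTL2 at -2.63, LATS2 at -1.63 and YAP1 at -0.49, and for these 5 the FaDu and SAS controls did not overlap. WWTR1 was the exception, at 73.0, 64.9 and 65.8 CPM in FaDu controls and 66.0, 74.7 and 53.9 CPM in SAS controls, where the groups overlapped (log2 fold change 0.09, SE 0.11, edgeR adjusted p = 0.44).

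**Figure D2:**
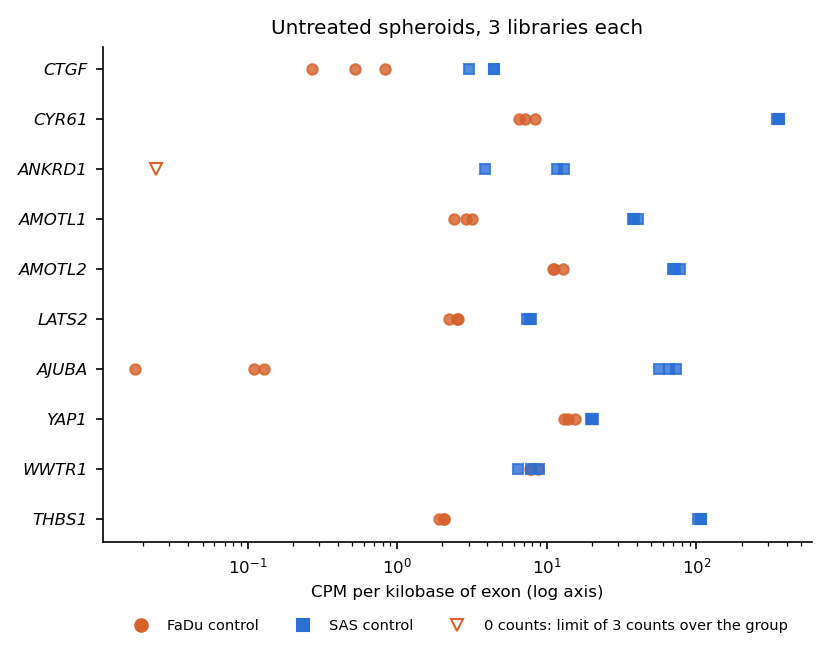
Level of each member in untreated spheroids, as CPM per kilobase of exon on a log axis, with 1 point for each of 3 libraries per spheroid type. The open triangle for ANKRD1 in FaDu is the limit that 3 counts over the group would give, since its libraries held 0 counts; WWTR1 is the member whose points overlap.

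CTGF (ENSG00000118523) encodes a secreted matricellular protein of the CCN family and is among the best known YAP/TEAD targets. In FaDu controls it was at 0.631, 1.22 and 1.93 CPM, from 12, 24 and 47 counts. After HT it was at 5.41, 6.63 and 6.95 CPM, and after HT + RT at 8.02, 11.6 and 11.3 CPM. In FaDu every heated library was above every control library. The log2 fold change was 2.31 (SE 0.33, edgeR adjusted p = 0.002) for HT and 3.01 (SE 0.32, edgeR adjusted p = 0.00031) for HT + RT, comparisons that share the control libraries. SAS controls were at 7.05, 10.3 and 10.4 CPM, HT spheroids at 40.3, 55.0 and 56.2 CPM and HT + RT spheroids at 60.1, 67.0 and 60.1 CPM. Again the heated and unheated groups did not overlap, with log2 fold changes of 2.45 (SE 0.16, edgeR adjusted p = 6.7e-07) and 2.76 (SE 0.13, edgeR adjusted p = 3.5e-08). Against RT alone, comparisons that share no library with HT against control, HT + RT was higher by 1.46 in FaDu (SE 0.18, edgeR adjusted p = 0.0011) and by 1.46 in SAS (SE 0.12, edgeR adjusted p = 6.5e-06). The difference between spheroid types in these effects did not pass the test (-0.13, SE 0.38, edgeR adjusted p = 0.94 for HT, and 0.28, SE 0.33, edgeR adjusted p = 0.73 for HT + RT). Ordered by mean, CTGF rose from FaDu control (1.26 CPM) through FaDu RT (3.84), FaDu HT (6.33), SAS control (9.27), FaDu HT + RT (10.3), SAS RT (22.6) and SAS HT (50.5) to SAS HT + RT (62.4). Of these neighbours, SAS control and FaDu HT + RT overlapped and the others did not.

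CYR61 (ENSG00000142871), a further secreted CCN protein and an early-response target of YAP, was at 20.3, 17.6 and 15.9 CPM in FaDu controls. After HT it was at 211, 219 and 232 CPM, and after HT + RT at 249, 267 and 258 CPM. Every heated FaDu library was far above every control library. The log2 fold changes were 3.65 (SE 0.10, edgeR adjusted p = 1e-07) for HT, 3.88 (SE 0.09, edgeR adjusted p = 2.1e-08) for HT + RT and 2.58 (SE 0.14, edgeR adjusted p = 1.7e-05) for HT + RT against RT. SAS started far higher, at 878, 875 and 846 CPM in controls. There HT gave 665, 775 and 661 CPM and HT + RT gave 807, 840 and 700 CPM. The SAS HT group lay wholly below the controls, with a log2 fold change of -0.30 (SE 0.06, edgeR adjusted p = 0.0054), a call that was lost when all 24 libraries were fitted together (adjusted p = 0.054, range over alternatives 1.5e-06 to 0.054). HT + RT against control was at -0.14 (SE 0.06, edgeR adjusted p = 0.12), and a fit blocked by replicate gave an adjusted p of 0.016 (range over alternatives 0.016 to 0.44). Against RT alone, HT + RT was lower by a log2 fold change of -0.41 (SE 0.10, edgeR adjusted p = 0.0093). CYR61 was thus higher after HT in FaDu and lower in SAS, and the difference between the types was 3.98 for HT (SE 0.12, edgeR adjusted p = 9.4e-11) and 4.05 for HT + RT (SE 0.12, edgeR adjusted p = 2.2e-11). Even so, all 6 heated FaDu libraries stayed below all SAS libraries. In the order of means, from FaDu control (17.9 CPM) to SAS RT (1035 CPM), SAS HT (700.4 CPM) and SAS HT + RT (782 CPM) were the neighbours that overlapped.

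THBS1 (ENSG00000137801) encodes thrombospondin-1, a large secreted glycoprotein that binds matrix and cell-surface receptors. FaDu controls were at 18.8, 17.5 and 18.7 CPM, HT spheroids at 47.7, 39.9 and 75.6 CPM and HT + RT spheroids at 66.0, 77.3 and 87.7 CPM. Every heated FaDu library was above the controls, while the HT and HT + RT groups overlapped each other. The log2 fold change was 1.59 for HT (SE 0.22, edgeR adjusted p = 0.0017), 2.10 for HT + RT (SE 0.11, edgeR adjusted p = 3.7e-06) and 2.02 for HT + RT against RT (SE 0.14, edgeR adjusted p = 5.7e-05). SAS controls were at 989, 984 and 940 CPM, HT spheroids at 840, 953 and 640 CPM, HT + RT spheroids at 917, 933 and 765 CPM and RT spheroids at 1321, 1404 and 1086 CPM. In SAS the HT libraries reached into the control range, whereas HT + RT lay below both controls and RT. HT against control was at -0.26 (SE 0.11, edgeR adjusted p = 0.11; 0.021 without HT replicate 2 and 0.011 under the replicate block, range over alternatives 5.4e-05 to 0.29), so the call depended on the fit. HT + RT against RT was at -0.55 (SE 0.09, edgeR adjusted p = 0.0012). For HT + RT against control the log2 fold change was -0.15 (SE 0.07, edgeR adjusted p = 0.13), with an adjusted p of 0.011 under the replicate block (range over alternatives 0.0093 to 0.55). The difference between the types was 1.88 for HT (SE 0.26, edgeR adjusted p = 0.00048) and 2.28 for HT + RT (SE 0.13, edgeR adjusted p = 1.1e-07). From FaDu control (18.4 CPM) to SAS RT (1270 CPM) the overlapping neighbours were FaDu control with FaDu RT, FaDu HT with FaDu HT + RT, and SAS HT with SAS HT + RT.

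ANKRD1 (ENSG00000148677) encodes an ankyrin-repeat protein that shuttles between muscle-type sarcomere structures and the nucleus and is a widely used reporter of YAP activity. In FaDu it had 5 counts over 12 libraries, with 0 in control and RT, 1 in HT and 4 in HT + RT, so it was not tested there and an effect of treatment was not detectable at this depth. SAS controls were at 23.1, 25.9 and 7.68 CPM and RT spheroids at 26.6, 21.5 and 7.36 CPM. After HT the values were 90.2, 99.5 and 58.6 CPM, and after HT + RT 134, 130 and 70.6 CPM. All 6 heated SAS libraries were above all 6 unheated ones, and replicate 3 was the lowest library in each of the 4 groups. The log2 fold change was 2.13 for HT (SE 0.31, edgeR adjusted p = 0.00042), 2.56 for HT + RT (SE 0.34, edgeR adjusted p = 0.00019) and 2.59 for HT + RT against RT (SE 0.34, edgeR adjusted p = 0.0002). In SAS, RT overlapped with control and HT overlapped with HT + RT.

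**Figure D3:**
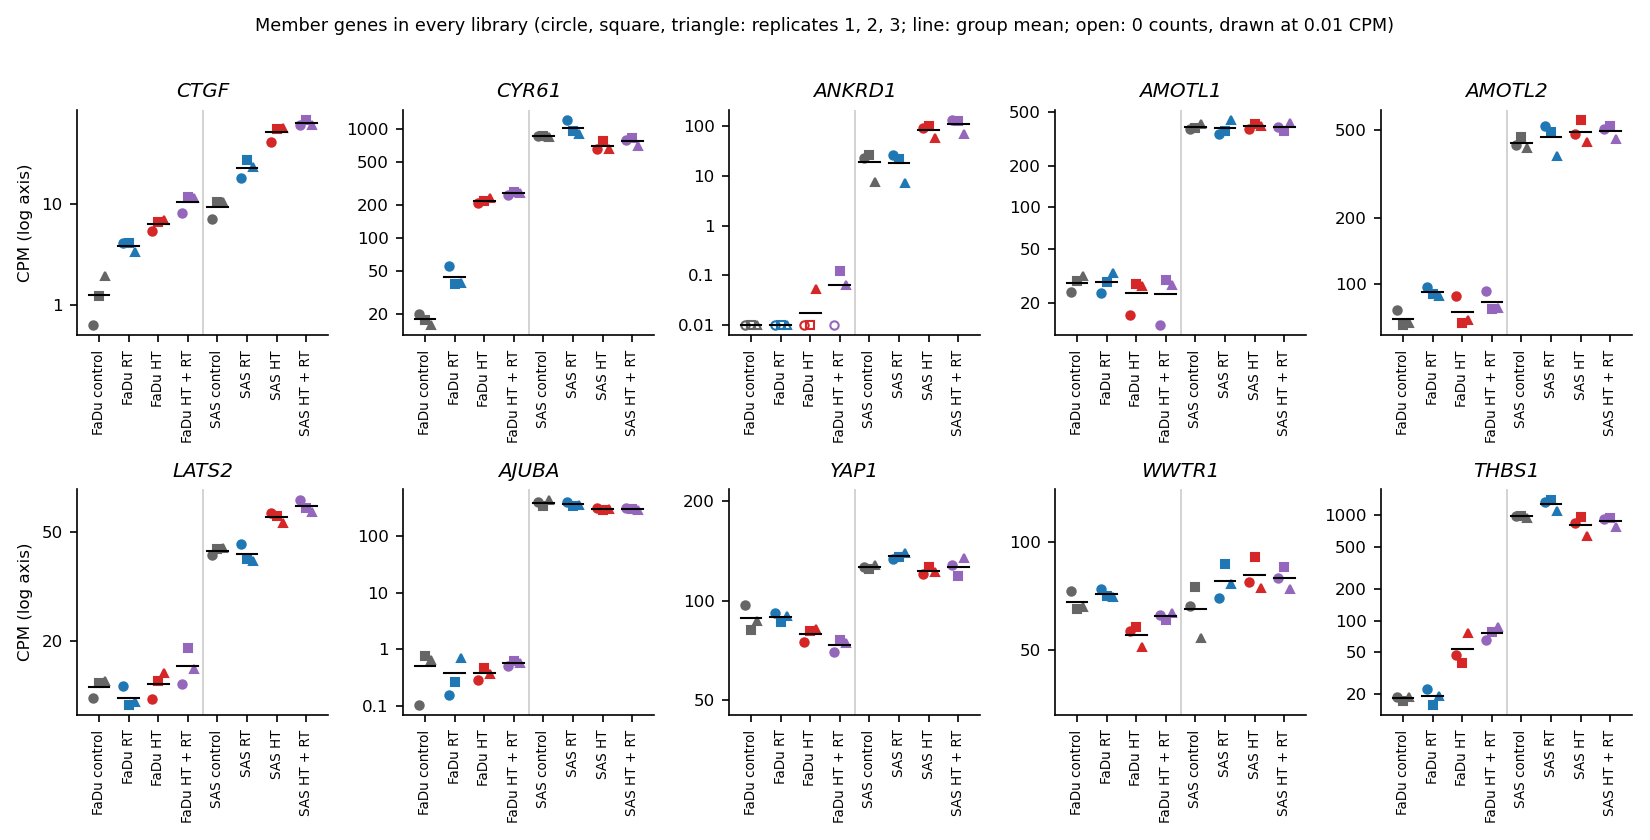
CPM of each member on a log axis in all 24 libraries, with marker shape for the replicate, colour for the treatment and a line for the group mean; open markers are libraries with 0 counts. CTGF is higher in each heated group than in the control of the same spheroid type, CYR61 and THBS1 are higher after heat in FaDu, where they start far below SAS, and WWTR1 is the member whose FaDu and SAS controls overlap.

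LATS2, AMOTL1, AMOTL2 and AJUBA act on the pathway that drives them, LATS2 as a kinase that inactivates YAP and TAZ, the angiomotin-like proteins AMOTL1 and AMOTL2 by retaining YAP at junctions and the cytoskeleton, and AJUBA by holding LATS back. LATS2 (ENSG00000150457) was at 41.1, 43.2 and 43.8 CPM in SAS controls, 58.8, 57.0 and 53.8 CPM after HT and 65.6, 61.4 and 59.3 CPM after HT + RT. These 3 SAS groups did not overlap, in rising order. The log2 fold change was 0.41 for HT (SE 0.07, edgeR adjusted p = 0.0012), 0.55 for HT + RT (SE 0.07, edgeR adjusted p = 0.00015) and 0.58 for HT + RT against RT (SE 0.07, edgeR adjusted p = 0.00016). In FaDu LATS2 ranged from 11.7 to 18.8 CPM over all 12 libraries, with control and HT libraries overlapping (0.06, SE 0.12, edgeR adjusted p = 0.79). HT + RT against RT was at 0.41 in FaDu (SE 0.13, edgeR adjusted p = 0.067), and the adjusted p was 0.038 with the replicate block, 0.025 without replicate 1 of HT + RT and 0.0012 without all libraries of replicate 1 (range over alternatives 0.0012 to 0.2). Against control it was at 0.28 (SE 0.13, edgeR adjusted p = 0.18), with 0.041 under the block (range 0.041 to 0.48). The difference between the types was -0.32 for HT (SE 0.13, edgeR adjusted p = 0.21).

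AJUBA (ENSG00000129474) went the other way in SAS. Its control values of 393, 334 and 438 CPM compare with 307, 292 and 295 CPM for HT and 308, 300 and 290 CPM for HT + RT. Each heated library was below each control. The log2 fold change was -0.38 for HT (SE 0.08, edgeR adjusted p = 0.0067) and -0.37 for HT + RT (SE 0.08, edgeR adjusted p = 0.007). HT + RT against RT was at -0.30 (SE 0.06, edgeR adjusted p = 0.0034), and the adjusted p was 0.065 in the fit of all 24 libraries (range over alternatives 2.6e-06 to 0.065). At 2 to 18 counts per library, AJUBA was too low in FaDu for a change to be seen.

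AMOTL1 (ENSG00000166025) was at 347 to 437 CPM in the 12 SAS libraries, where its 4 groups overlapped. In FaDu it was at 13.8 to 33.0 CPM, and replicate 1 was the lowest library of each group. No comparison between treatments passed the test for AMOTL1, with edgeR adjusted p from 0.47 to 1. For FaDu HT + RT against control the log2 fold change was -0.24 (SE 0.24, edgeR adjusted p = 0.56), the adjusted p was 0.044 under the replicate block (range over alternatives 0.044 to 0.91), and the sign turned to 0.02 without replicate 1 of HT + RT.

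AMOTL2 (ENSG00000114019) was at 76.2, 65.5 and 66.9 CPM in FaDu controls, 97.9, 90.3 and 88.3 CPM after RT, 88.5, 66.9 and 69.2 CPM after HT and 93.6, 77.7 and 78.3 CPM after HT + RT. The RT libraries were all above the controls, and the HT libraries were not. HT against control was at 0.13 (SE 0.11, edgeR adjusted p = 0.49). HT + RT against control was at 0.29 in FaDu (SE 0.09, edgeR adjusted p = 0.055; 0.00046 under the block, 0.034 without control replicate 1 and 0.0025 without all libraries of replicate 1, range over alternatives 0.00046 to 0.18) and at 0.18 in SAS (SE 0.06, edgeR adjusted p = 0.053; 0.0022 under the block, 0.036 without control replicate 2 and 0.017 without HT + RT replicate 3, range 0.0022 to 0.27). HT against control in SAS was at 0.18 (SE 0.08, edgeR adjusted p = 0.13; 0.029 under the block and 0.032 without HT replicate 3, range 0.029 to 0.48). For HT + RT against RT in FaDu it was at -0.12 (SE 0.08, edgeR adjusted p = 0.37), with 0.031 without the libraries of replicate 1 (range 0.031 to 0.69). In SAS AMOTL2 ranged from 384 to 556 CPM over the 12 libraries. For AMOTL1, AMOTL2, LATS2 and AJUBA every FaDu group lay below every SAS group. Neighbouring groups within a type overlapped, apart from SAS control, HT and HT + RT for LATS2 and SAS HT + RT and RT for AJUBA.

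YAP1 (ENSG00000137693) and WWTR1 (ENSG00000018408), which encode the coactivators, moved little on the RNA level. YAP1 in FaDu was at 96.9, 81.7 and 86.6 CPM in controls, 91.8, 86.3 and 89.8 CPM after RT, 75.0, 80.7 and 81.9 CPM after HT and 70.1, 76.2 and 74.6 CPM after HT + RT. The HT + RT libraries were below all control and RT libraries. HT + RT against RT was at -0.25 (SE 0.06, edgeR adjusted p = 0.019), and the adjusted p was 0.073 without RT replicate 3 and 0.075 without HT + RT replicate 3 (range over alternatives 0.0044 to 0.075). HT + RT against control was at -0.24 (SE 0.07, edgeR adjusted p = 0.053), with 0.006 under the replicate block and 0.046 without control replicate 2 (range 0.006 to 0.15). In SAS YAP1 ranged from 119 to 140 CPM and no treatment comparison passed the test. The difference between the types was -0.21 for HT + RT (SE 0.10, edgeR adjusted p = 0.25).

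WWTR1 in FaDu was at 56.5, 57.9 and 50.7 CPM after HT and at 62.2, 60.3 and 63.4 CPM after HT + RT, beside the control values of 64.9 to 73.0 CPM. The HT libraries were below all controls, and so were the HT + RT libraries. The log2 fold change for HT was -0.28 (SE 0.07, edgeR adjusted p = 0.031), and the call was lost without any 1 of the controls or of HT replicates 2 and 3, at adjusted p of 0.059 to 0.12 (range over alternatives 0.0029 to 0.12). HT + RT against RT in FaDu was at -0.18 (SE 0.06, edgeR adjusted p = 0.061), with 0.031 under the block (range 0.031 to 0.21). SAS controls were at 66.0, 74.7 and 53.9 CPM, HT spheroids at 77, 90.6 and 74.4 CPM and HT + RT spheroids at 79.0, 85.1 and 73.8 CPM, and heated and control libraries overlapped. In SAS the log2 fold change for HT was 0.32 (SE 0.11, edgeR adjusted p = 0.055; 0.016 without control replicate 2 and also passing under the block, range 0.0013 to 0.22). For HT + RT it was 0.30 (SE 0.10, edgeR adjusted p = 0.057; 0.00038 under the block and 0.012 without control replicate 2, range 0.00038 to 0.18). The difference between the types for HT was -0.57 (SE 0.15, edgeR adjusted p = 0.038). That difference did not pass without any 1 of the 3 FaDu controls, FaDu HT replicate 3, SAS control replicate 1 or SAS HT replicate 2, at adjusted p of 0.051 to 0.08. It was 0.053 without the FaDu libraries of replicate 1 (range over alternatives 0.00015 to 0.08). For HT + RT the difference was -0.37 (SE 0.14, edgeR adjusted p = 0.14; 0.0044 under the block and 0.022 without SAS control replicate 2, range 0.0044 to 0.24). In the order of means, YAP1 was lower in every FaDu group than in every SAS group, with overlap between all neighbours within a type. WWTR1 ran from FaDu HT (55.0 CPM) to SAS HT (80.7 CPM), the types were mixed in that order, and FaDu HT was the group without overlap with its neighbour.

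Taken by comparison, HT against control moved 3 members up in FaDu (CTGF, CYR61 and THBS1) of 8 tested, where 7.95% of 15879 genes rose, and 1 down (WWTR1), where 9.69% fell. In SAS, 3 of 10 rose (CTGF, ANKRD1 and LATS2), where 12.2% of 15000 genes rose, and 2 fell (CYR61 and AJUBA), where 11.4% fell. HT + RT against control moved 3 of 9 up in FaDu (CTGF, CYR61 and THBS1; background 9.52% of 15896 genes) and 0 down by edgeR (9.78%), where 5 were at an unadjusted p under 0.05 in either direction and DESeq2 called 4 higher and 0 lower. In SAS it moved 3 of 10 up (CTGF, ANKRD1 and LATS2; 13.6% of 14938 genes) and 1 down (AJUBA; 11.5%). HT + RT against RT moved 3 of 9 up in FaDu (CTGF, CYR61 and THBS1; 9.37% of 15905 genes) and 1 down (YAP1; 9.9%). In SAS it moved 3 of 10 up (CTGF, ANKRD1 and LATS2; 14.1% of 15125 genes) and 3 down (CYR61, AJUBA and THBS1; 13.8%). The shares of members that fell were based on 0 to 3 genes and were in part near the background.

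With an absolute log2 fold change over 1 as well, the members called were CTGF, CYR61 and THBS1 in each of the 3 FaDu comparisons, against 4.97% of all genes for HT, 5.72% for HT + RT and 5.39% for HT + RT against RT. In SAS they were CTGF and ANKRD1, against 6.03%, 6.36% and 6.6%. The median log2 fold change of the members was 0.09 for HT in FaDu and 0.10 in SAS, beside 0.01 and 0.00 over all genes. CTGF was called in both types. With the replicate block, 7 of 9 members passed for FaDu HT + RT against control (32.9% of all genes) and 6 of 9 for FaDu HT + RT against RT (31%). In SAS 8 of 10 passed with it for HT against control (29.4%) and 8 of 10 for HT + RT against control (35.5%). The block left the count at 4 of 8 for FaDu HT against control (32.7%). It also left it at 6 of 10 for SAS HT + RT against RT (38.9%). ANKRD1 and AJUBA had too few FaDu counts to show a difference between the types, and AJUBA is 1 of the 9 members counted in FaDu. Of the other 8 members, 3 differed between the types for HT (CYR61, THBS1 and WWTR1; 5.55% of 17219 genes) and 2 for HT + RT (CYR61 and THBS1; 7.27%).

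**Figure D4:**
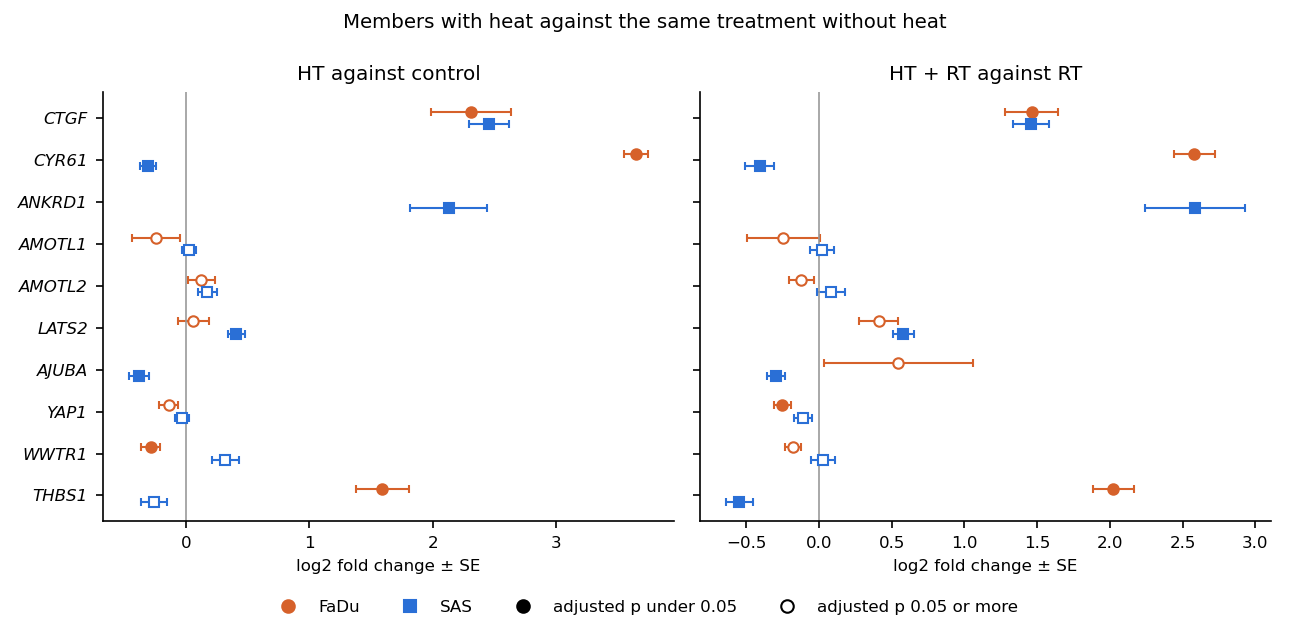
Log2 fold change with SE of each member for HT against control and for HT + RT against RT, comparisons that share no library, in FaDu (circles) and SAS (squares). Filled markers have an adjusted p under 0.05; CTGF lies to the right in both types, and CYR61 and THBS1 lie to the right in FaDu and left of 0 in SAS.

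Radiation alone was compared with control to see what differed without heat. Irradiation was done at room temperature while controls were kept at the culture temperature, and the methods describe no sham irradiation. An effect of the dose therefore cannot be told apart from that of this handling, here or in HT + RT against HT. In FaDu, CTGF after RT was at 4.06, 4.10 and 3.36 CPM, all above the controls (log2 fold change 1.56, SE 0.33, edgeR adjusted p = 0.34). CYR61 after RT was at 55.5, 37.9 and 38.5 CPM, also all above the controls (1.29, SE 0.16, edgeR adjusted p = 0.054). With AMOTL2 at 0.40 (SE 0.07, edgeR adjusted p = 0.21), these were the 3 FaDu members whose RT and control libraries did not overlap. Of 9 members 0 passed the test, where 0.0322% of 15552 genes did, while 3 members were at an unadjusted p under 0.05 (5.09% of all genes) and DESeq2 called 3 (0.431%). With the replicate block the same 3 genes passed (2.01% of all genes), at adjusted p of 0.00025 for CTGF (range over alternatives 9.1e-07 to 0.88), 8.2e-13 for CYR61 (9.5e-35 to 0.67) and 9.7e-06 for AMOTL2 (9.7e-06 to 1). They also passed without the libraries of replicate 1, at adjusted p of 0.008, 2.3e-11 and 4.1e-05. CYR61 alone passed without replicate 1 of RT (adjusted p = 0.0048) or of control (adjusted p = 0.048).

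In SAS, CTGF after RT was at 17.7, 27.1 and 23.1 CPM, above all controls, with a log2 fold change of 1.29 (SE 0.18, edgeR adjusted p = 0.033). It was the 1 member of 10 that passed, where 0.0749% of 14680 genes did. The call was lost without control replicate 1 (adjusted p = 0.16), control replicate 2 (0.1), RT replicate 2 (0.2) or RT replicate 3 (0.056), with a range over alternatives of 4.1e-19 to 0.2. THBS1 (0.39, SE 0.08, edgeR adjusted p = 0.19) and CYR61 (0.26, SE 0.09, edgeR adjusted p = 0.69; 1222, 966 and 917 CPM) also lay above the controls in all RT libraries, as did YAP1 (0.11, SE 0.05, edgeR adjusted p = 0.89). With the replicate block 4 of 10 members passed (1.96% of all genes), CTGF together with THBS1 (adjusted p = 1.8e-05, and 0.0087 by edgeR without RT replicate 3, range over alternatives 1.3e-09 to 0.75), CYR61 (0.0096, range 0.0011 to 1) and WWTR1 (0.036, range 0.036 to 1). ANKRD1 was at -0.04 (SE 0.44, edgeR adjusted p = 1). Leaving aside ANKRD1 and AJUBA, whose FaDu counts were too low, 0 of 8 members differed between the types for RT by edgeR, where 0.00595% of 16811 genes did; 2 members were at an unadjusted p under 0.05 (2.74% of all genes) and DESeq2 called 1 (0.0119%). The CYR61 difference was 1.04 (SE 0.20, edgeR adjusted p = 0.87), with 5.8e-07 under the block, where 0.107% of all genes passed, and 0.035 without the FaDu libraries of replicate 1 (range over alternatives 2e-20 to 1).

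When radiation was added to heat, 0 members passed in either type by edgeR, and 0% of all genes did (16145 in FaDu, 15341 in SAS). At an unadjusted p under 0.05 there were 3 members among 361 genes in FaDu and 1 among 673 in SAS. DESeq2 called 7 genes higher and 0 lower in FaDu and 36 higher and 1 lower in SAS, with 0 members among them. CTGF was higher in HT + RT than in HT by 0.70 in FaDu (SE 0.18, edgeR adjusted p = 1) and 0.30 in SAS (SE 0.11, edgeR adjusted p = 0.99), with all HT + RT libraries above all HT libraries in both types. With the replicate block 3 members passed in FaDu (0.954% of all genes), CTGF (adjusted p = 0.0018, range over alternatives 0.0018 to 1), CYR61 (0.0072, range 0.0072 to 1) and THBS1 (0.00096, range 0.00018 to 1). CTGF passed also without the FaDu libraries of replicate 1 (adjusted p = 0.032). In SAS 1 member passed with the block (0.906% of all genes), ANKRD1 at a log2 fold change of 0.41 (SE 0.05, adjusted p = 0.00074, range over alternatives 9.5e-06 to 1).

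**Figure D5:**
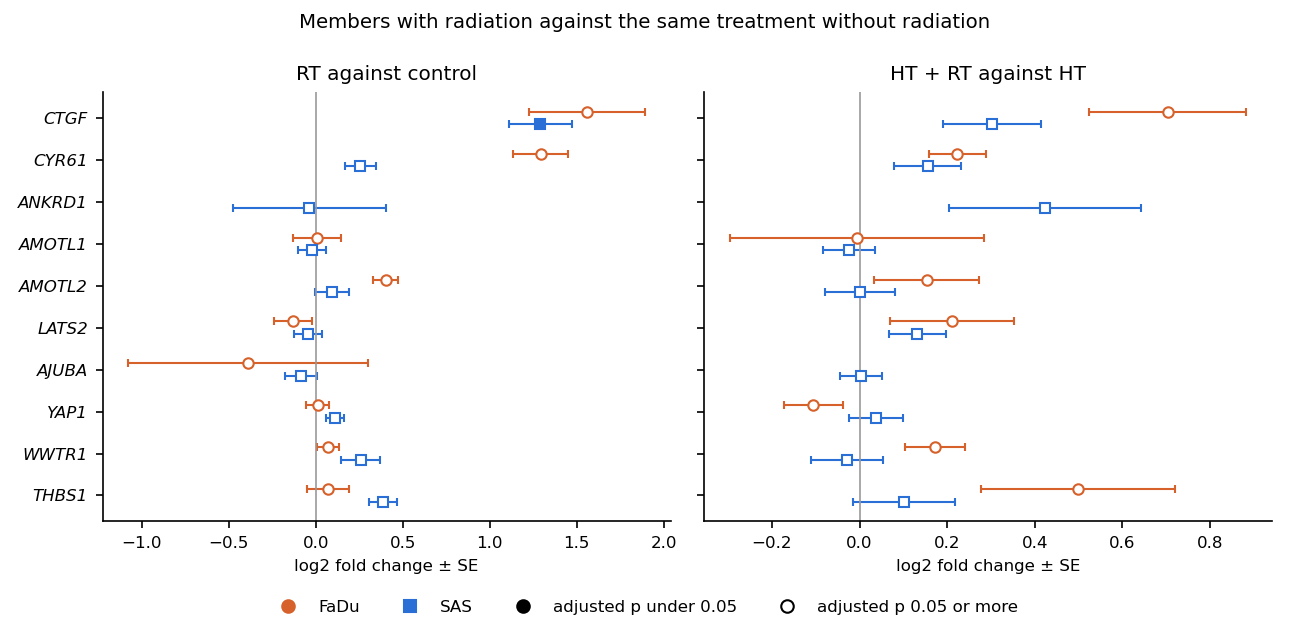
Log2 fold change with SE of each member for RT against control and for HT + RT against HT, in FaDu (circles) and SAS (squares), with filled markers for an adjusted p under 0.05. CTGF in SAS is the filled marker, and the FaDu values of CTGF and CYR61 for RT lie above 1.

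Whether heat and radiation added up on the log scale was tested as the log2 fold change of HT + RT against RT minus that of HT against control. For CYR61 in FaDu this was -1.07 (SE 0.18, edgeR adjusted p = 0.64), and for CTGF it was -0.86 in FaDu (SE 0.38, edgeR adjusted p = 1) and -0.999 in SAS (SE 0.23, edgeR adjusted p = 0.64). A value below 0 says that the step from RT to HT + RT was smaller than the step from control to HT. Of 9 members in FaDu and 10 in SAS 0 passed, where 0% of 16793 genes and 0.00632% of 15833 genes did. At an unadjusted p under 0.05 there were 541 genes with 2 members in FaDu and 629 genes with 1 member in SAS. DESeq2 called 2 genes higher and 6 lower in FaDu and 6 higher and 6 lower in SAS. Among members DESeq2 called CYR61 in FaDu (adjusted p = 0.00046, range over alternatives 1.2e-15 to 1) and CTGF in SAS (adjusted p = 0.034, range 2.8e-09 to 1). With the replicate block CYR61 passed in FaDu and CTGF in SAS, where 0.0595% and 0.189% of all genes did. CYR61 in FaDu passed also without replicate 1 of RT (adjusted p = 0.035) and without all FaDu libraries of replicate 1 (adjusted p = 2.7e-06).

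Genes that act with the members in the pathway were counted from lists. TEAD1 to TEAD4, the DNA-binding factors, were at 65.0, 16.3, 35.7 and 25.5 CPM in FaDu controls and at 88.9, 20.7, 50.0 and 38.9 CPM in SAS controls. Of the list of 8 TEAD and VGLL genes, 7 were tested in each type, where HT lowered 1 in FaDu and raised 1 in SAS, beside 9.69% of all genes lowered in FaDu and 12.2% raised in SAS. These were TEAD1 in FaDu (-0.30, SE 0.08, edgeR adjusted p = 0.037) and VGLL3, a TEAD cofactor, in SAS (0.23, SE 0.07, edgeR adjusted p = 0.033), named here after their values were seen. VGLL3 was at 457 ± 46.3 CPM (SD, n = 3) in SAS controls and at 1.49 ± 0.753 CPM in FaDu controls. Among 25 genes of the Hippo core and upstream of it, HT raised 2 and lowered 5 of 24 tested in FaDu, where 7.95% of all genes rose and 9.69% fell. In SAS it raised 1 and lowered 4 of 22, where 12.2% rose and 11.4% fell. The median log2 fold change of this list was -0.05 in FaDu and -0.06 in SAS, beside 0.01 and 0.00 over all genes, and 0 of its genes exceeded a log2 fold change of 1. For HT + RT against RT, 1 of this list rose and 6 fell in FaDu, beside 9.37% and 9.9% of all genes, and 1 rose and 5 fell in SAS, beside 14.1% and 13.8%. For the same comparison, 0 of the 7 TEAD and VGLL genes passed in FaDu by edgeR, with 0 at an unadjusted p under 0.05 and 0 by DESeq2, and 1 rose and 1 fell in SAS. RASSF1, a scaffold of the MST kinases, was singled out after its values were seen. For HT against control RASSF1 was the lowest of the Hippo list in both types, at -0.97 in FaDu (SE 0.19, edgeR adjusted p = 0.0085) and -0.97 in SAS (SE 0.14, edgeR adjusted p = 0.00034). LATS1, the paralog of LATS2, was at 40.0 CPM in FaDu and 55.7 CPM in SAS controls. AMOT, the paralog of AMOTL1 and AMOTL2, was at 3.21 CPM in FaDu controls and had 0 counts in SAS controls, at least 56.9-fold lower against a floor of 3 counts over the group. FAT1, of the Hippo list and named after its values were seen, was at 78.6 CPM in FaDu controls. It too had 0 counts in SAS controls, at least 1390-fold lower. Between untreated types DESeq2 called 9 genes of the Hippo list higher and 14 lower in FaDu, of 24 tested. Over all 15810 genes it called 5898 higher and 5549 lower.

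Further published YAP/TAZ targets were a list of 20 genes. In FaDu HT raised 2 and lowered 1 of 18 tested, beside 7.95% and 9.69% of all genes, and HT + RT raised 5 and lowered 1, beside 9.52% and 9.78%. In SAS HT raised 2 and lowered 5 of 20, beside 12.2% and 11.4%, and HT + RT raised 2 and lowered 6, beside 13.6% and 11.5%. Against RT, HT + RT raised 2 and lowered 1 in FaDu, beside 9.37% and 9.9%, and raised 3 and lowered 7 in SAS, beside 14.1% and 13.8%. Their median was 0.05 in FaDu and -0.11 in SAS for HT, beside 0.01 and 0.00 over all genes. EDN1, which encodes the vasoconstrictor peptide endothelin-1, rose in both types, with HT at 2.66 in FaDu (SE 0.28, edgeR adjusted p = 0.00051) and at 1.27 in SAS (SE 0.32, edgeR adjusted p = 0.012). GADD45A, a stress-response gene, rose in FaDu by 0.82 with HT (SE 0.18, edgeR adjusted p = 0.015) and by 1.06 with HT + RT (SE 0.11, edgeR adjusted p = 0.00027). NUAK2, a kinase gene, rose by 1.09 in FaDu with HT + RT (SE 0.15, edgeR adjusted p = 0.0012) and was at -0.62 in SAS (SE 0.14, edgeR adjusted p = 0.0081). INHBA, which encodes an activin subunit, rose by 1.07 in SAS with HT + RT (SE 0.11, edgeR adjusted p = 3.8e-05). FJX1 fell in both types with HT, at -0.69 in FaDu (SE 0.09, edgeR adjusted p = 0.0013) and at -1.23 in SAS (SE 0.10, edgeR adjusted p = 4e-06).

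CTGF and CYR61 belong to a family of 6, and of the 4 others NOV and WISP2 were tested in both types. NOV rose with HT, by 0.69 in FaDu (SE 0.12, edgeR adjusted p = 0.0053) and by 0.88 in SAS (SE 0.23, edgeR adjusted p = 0.015). NOV was at 12.9 CPM in FaDu and 3.11 CPM in SAS controls. For WISP2 HT was at -0.13 in FaDu (SE 0.44, edgeR adjusted p = 0.87) and at -0.11 in SAS (SE 0.18, edgeR adjusted p = 0.7). WISP2 was at 1.01 and 10.5 CPM, WISP1 at 0.0521 and 0.0937 CPM and WISP3 at 0.130 and 0.313 CPM. SRF, its cofactor gene MRTFA and their targets, which share CTGF and CYR61 as reported targets with YAP, were set beside the members. Of these 13 genes, HT raised 1 and lowered 1 of 12 tested in FaDu (7.95% and 9.69% of all genes). In SAS it raised 0 and lowered 0 of 11 by edgeR (12.2% and 11.4% of all genes), where 2 were at an unadjusted p under 0.05 and DESeq2 called 0. The genes that passed in FaDu were the target ACTG1, at 0.47 (SE 0.07, edgeR adjusted p = 0.0024), and the cofactor gene MRTFA, at -0.96 (SE 0.09, edgeR adjusted p = 0.00021), both named after their values were seen. HT + RT raised 1 and lowered 1 in FaDu against control (9.52% and 9.78% of all genes) and against RT (9.37% and 9.9%). In SAS HT + RT raised 1 and lowered 0 against control (13.6% and 11.5%), where 3 were at an unadjusted p under 0.05 and DESeq2 called 0, and raised 2 and lowered 2 against RT (14.1% and 13.8%), where DESeq2 called 1 higher and 2 lower. Named after their values were seen, the SAS genes against RT were SRF (-0.32, SE 0.07, edgeR adjusted p = 0.007), VCL (-0.20, SE 0.05, edgeR adjusted p = 0.016), TPM1 (0.26, SE 0.07, edgeR adjusted p = 0.011) and FHL2 (0.17, SE 0.06, edgeR adjusted p = 0.045). TPM1 was also the gene raised against control (0.23, SE 0.07, edgeR adjusted p = 0.03).

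Genes with the pattern most like a member were sought among 12166 genes by the root mean square difference of the 6 log2 fold changes against the control of the same type. Nearest to CTGF were CXCL8 (difference 0.558), SOCS3 (0.601) and FAM43A (0.634). Nearest to CYR61 were TRIB1 (0.467), EGR1 (0.516) and EGR3 (0.544). For HT these latter genes were at 3.27, 4.09 and 4.45 in FaDu and at 0.37, 0.11 and -0.52 in SAS, in that order, beside 3.65 and -0.30 for CYR61. The genes were chosen by these same values, so the likeness is a description and not a test. ANKRD1 was not tested in FaDu, so the measure was not computed for it.

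The identity of the cells was checked with marker genes. All 8 squamous epithelial markers were at 1 CPM or more in each group, with summed levels of 9719 to 11625 CPM in FaDu libraries and 3733 to 4560 CPM in SAS libraries, and KRT17 was the most abundant. In FaDu the sums were 9858 to 10195 CPM in controls and 10992 to 11625 CPM after HT, and in SAS 3992 to 4294 CPM and 4181 to 4560 CPM. HT raised 0 and lowered 1 of the 8 in FaDu by edgeR, beside 7.95% and 9.69% of all genes, where 2 were at an unadjusted p under 0.05 and DESeq2 called 1 higher and 1 lower. It raised 2 and lowered 1 in SAS, beside 12.2% and 11.4%. Named after their values were seen, these were TP63 in FaDu (-0.50, SE 0.08, edgeR adjusted p = 0.0045) and KRT6A (0.85, SE 0.09, edgeR adjusted p = 2.8e-05), KRT17 (0.23, SE 0.07, edgeR adjusted p = 0.038) and SFN (-0.40, SE 0.06, edgeR adjusted p = 0.0006) in SAS. Against RT, HT + RT raised 0 and lowered 1 in FaDu by edgeR (9.37% and 9.9%), where 3 were at an unadjusted p under 0.05 and DESeq2 called 1 higher and 1 lower, and raised 4 and lowered 1 in SAS, beside 14.1% and 13.8% of all genes. Of 4 fibroblast markers 1 was at 1 CPM or more, COL1A1, and the summed level was 34.2 to 65.1 CPM in FaDu and 1.31 to 31.8 CPM in SAS. COL1A1 was at 1.32 CPM in SAS controls and rose with heat to 23.9 CPM (HT; log2 fold change 4.18, SE 0.28, edgeR adjusted p = 6.4e-07), as CTGF and ANKRD1 did, while DCN had 0 counts in SAS RT and HT, and COL1A2 and PDGFRB stayed below 1 CPM in every group. The part of these marker changes and of other cell types in the results was not tested. Of 3 leukocyte markers CD68 alone reached 1 CPM, with a summed level of 1.21 to 2.79 CPM over all libraries, and PTPRC had 0 counts in all 4 SAS groups. Endothelial markers summed to 6.10 to 8.72 CPM in FaDu and 9.53 to 23.6 CPM in SAS, with CDH5 as the most abundant.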

How the data were processed

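Per the labels, 24 libraries of FaDu and SAS spheroids fell into 8 groups by spheroid type and treatment, and the authors' methods describe the 3 replicates as independent experiments. The deposited tables hold raw read counts per gene, whole numbers that the authors made from their reads; a second set of normalized tables was not used here. The submitters' processing notes name bcl2fastq, DESeq2 and the build mm9, which does not suit human samples, and the aligner, counter and strand setting are not given in the sources used here. Therefore genes that share reads with an overlapping gene are uncertain. Gene names and exon lengths came from GENCODE v29 (602 of 57500 identifiers did not match, with 0.0217% of counts).

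Each comparison was fitted on its own groups with edgeR 4.0.16 in R 4.3.3 (trimmed-mean scaling, filterByExpr with min.count 10, quasi-likelihood test, Benjamini-Hochberg adjustment over all genes tested), after a test on simulated data. Alternatives were DESeq2 1.42.0, RLE scaling, other filters, a fit of all 24 libraries, a replicate block, and each library left out. Leaving out all FaDu libraries of replicate 1 was chosen after seeing the data. Same-numbered libraries deviated together in 10 of 16 comparisons (every same-number correlation of deviations from group means over 0.1), which is a hint from the data. For FaDu RT against control these correlations were 0.186 to 0.527. Libraries of different number reached 0.251 there and 2 of 6 correlated best with another number, so replicates 2 and 3 do not pair clearly by number. Different numbers also exceeded the lowest same-number value in FaDu HT + RT against HT (0.311 and 0.243) and against RT (0.207 and 0.159). The same held for the difference between types for RT (0.199 and 0.122). Of the libraries there, 1 of 6, 1 of 6 and 1 of 12 correlated best with another number. Blocked values are printed where they changed a member's call in the 10 comparisons. For the other comparisons, changed counts of members are given. Members and gene lists were chosen with earlier results of these data known. All members were named; from each list, at most 6 genes past both thresholds (adjusted p 0.05, absolute log2 fold change 1) in HT or HT + RT against control; TEAD1 to TEAD4, LATS1, AMOT and CCN genes by level; and the 3 genes of most similar pattern for CTGF, CYR61 and ANKRD1, among genes with a mean log2 CPM of at least 1. Floors of 3 counts cover counting error only. Figures used Python 3.11.15 and matplotlib 3.10.9.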

Additional observations from a re-analysis of the deposited data

Results flagged for a closer look

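The response to treatment differed between FaDu and SAS spheroids by the interaction test of edgeR with Benjamini-Hochberg adjustment. For HT against control it differed for 3 of 8 members and 3 of 18 further YAP/TAZ targets (5.55% of 17219 genes). For HT + RT against control it differed for 2 of 8 members and 5 of 18 targets (7.27% of 17219 genes), where a difference in heat response cannot be told apart from the radiation dose of 7 Gy in FaDu and 10 Gy in SAS. ANKRD1, AJUBA and 2 of the 20 listed targets, too low in FaDu, are left out. Each value is the FaDu log2 fold change minus the SAS one. For HT, CYR61 differed by 3.98, THBS1 by 1.88 and WWTR1 by -0.57, and NUAK2 by 1.24, GADD45A by 0.99 and FJX1 by 0.57. For HT + RT, CYR61 differed by 4.05, THBS1 by 2.28, EDN1 by 2.05, NUAK2 by 1.74, GADD45A by 0.85 and FJX1 by 0.62. DOCK5, named after its values were seen, differed by 0.51 for HT + RT. For HT, CYR61 rose in FaDu and fell in SAS, where the call was lost in the fit of all 24 libraries. For HT + RT, NUAK2 rose in FaDu and fell in SAS. For both treatments EDN1 rose and FJX1 fell in each spheroid type. The WWTR1 difference was lost without any 1 of 6 of the 12 libraries.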

How the results depend on the processing

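For single members that passed the test, 266 values under other settings kept the direction and the call and 3 lost the call, and 259 values without 1 library kept both and 17 lost the call. The replicate block ended no call of a member. Where a member had not passed, 79 settings and 14 fits without 1 library passed in the same direction. Among member results that passed in at least 1 fit, the sign turned once: for AMOTL1 in FaDu HT + RT against control the log2 fold change ran from -0.4287 to 0.0248 over the fits without 1 library, with 0.0248 without replicate 1 of HT + RT. Of 82 member results that passed in no fit, 41 had the other sign in at least 1 fit, and their absolute log2 fold changes were at most 0.28.

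Counts of members that moved by over 1.5 times, or from 0, were as follows, each with the share of all genes that passed under the same setting. By DESeq2 it was 3 for FaDu RT against control (0.431%), 2 for SAS RT against control (0.32%), and 1 each for the difference between types for RT (0.0119%) and for heat by radiation in FaDu (0.0476%) and in SAS (0.0758%). With no filter on low counts, which adds genes to the denominator, it was 3 for FaDu RT (0.455%) and SAS RT against control (0.598%), 5 for FaDu HT + RT against control (12.6%), 8 for SAS HT (14.1%) and SAS HT + RT against control (15.1%), 2 for FaDu HT + RT against HT (0.127%) and for SAS heat by radiation (0.15%), and 1 for SAS HT + RT against HT (0.295%), for the difference between types for RT (0.109%) and for FaDu heat by radiation (0.15%). With all 24 libraries in 1 fit it was 2 for FaDu RT against control (0.135%) and 1 for the difference between types for RT (0.0119%) and for FaDu heat by radiation (0.0119%). With the replicate block it was 3 for FaDu RT against control (2.01%) and FaDu HT + RT against HT (0.954%), 7 for FaDu HT + RT against control (32.9%), 4 for SAS RT against control (1.96%), 8 for SAS HT (29.4%) and SAS HT + RT against control (35.5%), and 1 for SAS HT + RT against HT (0.906%), for the difference between types for RT (0.107%) and for heat by radiation in FaDu (0.0595%) and in SAS (0.189%). Without the FaDu libraries of replicate 1, a setting chosen after seeing the data, it was 3 for FaDu RT against control (1.21%) and 1 for FaDu HT + RT against HT (0.249%), for the difference between types for RT (0.0174%) and for FaDu heat by radiation (0.241%). With a log2 fold change over 1 required it was 2 in SAS for HT (6.03%) and HT + RT against control (6.36%) and for HT + RT against RT (6.6%). The cause of these moves was not tested.

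Smaller moves included FaDu HT + RT against RT, from 4 to 6 with the replicate block (31%) and without the FaDu libraries of replicate 1 (31.6%), and the difference between types for HT + RT, from 2 to 3 with the block (15%). Without 1 library the count ran from 0 to 1 for FaDu RT against control, SAS RT against control and FaDu heat by radiation, from 3 to 4 for FaDu HT and FaDu HT + RT against control, from 3 to 5 for FaDu HT + RT against RT, from 5 to 6 for SAS HT and from 4 to 6 for SAS HT + RT against control, and from 2 to 3 for the difference between types for HT and for HT + RT. In the other comparisons it did not move.

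In SAS HT against control the libraries share a number only, with same-number correlations of 0.0259 to 0.181, and 4 of 6 correlated best with their own number, a hint from the data. The members added by the block there were WWTR1 (adjusted p = 0.0015, range over alternatives 0.0013 to 0.22), THBS1 (0.011, range 5.4e-05 to 0.29) and AMOTL2 (0.029, range 0.029 to 0.48).

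With 3 libraries a group, an adjusted p above the threshold does not show that a member did not change. ANKRD1 and AJUBA had too few counts in FaDu for an effect to be seen. RNA was taken at 1 time and each spheroid type received its own radiation dose.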
